A study of Mus musculus with 15 samples.

Results

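The insulin-like growth factor (IGF) family was followed through 10 genes, taken by symbol from the gene count table: the ligands Igf1 and Igf2, the receptors Igf1r and Igf2r, and the binding proteins Igfbp2, Igfbp3, Igfbp4, Igfbp5, Igfbp6 and Igfbp7. They are 10 of the 24421 genes listed, and all 10 had enough counts to be among the 13912 genes tested. IGF1 and IGF2 are secreted ligands that signal through the tyrosine kinase receptor encoded by Igf1r, whose adaptors feed the PI3K and AKT pathway of growth and survival. Igf2r, the cation-independent mannose 6-phosphate receptor, takes up IGF2 for degradation and sorts lysosomal enzymes. The secreted binding proteins hold the ligands outside the cell and can prolong or limit their action, and proteases such as pappalysin release the ligand again. In the kidney, IGF1 is known for effects on growth and on filtration.

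RNA was measured in 15 libraries of primary cells grown from the kidneys of C57BL/6 mice, cultured as proximal tubule cells and passaged once. The 4 groups were male WT (Diet1+/+, n = 4), male KO (Diet1–/–, n = 3), female WT (Diet1+/+, n = 4) and female KO (Diet1–/–, n = 4). Per the labels, cells of several mice were pooled for each group and split into technical replicates, so p-values measure only the spread between libraries of 1 pool, and a difference between groups cannot be told apart from a difference between pools. No age of the mice is given. The targeted gene was not analysed here, so the KO label was not checked against its own transcript. The questions the labels pose are what Diet1 loss does to these cells in each sex, and whether the sexes differ.

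The libraries held 17648416 to 30896637 counts. The lowest correlation of log2 levels within a group was 0.994 and the highest between groups 0.993. Markers of the labelled cell type were low: 8 of 16 proximal tubule genes passed the filter on low counts, and the transporters Slc34a1, Slc5a2, Slc5a12, Slc22a6, Slc22a8 and Slc13a3 stayed under 1 CPM (counts per 1000000, scaled between libraries by TMM) in each group. Taken in the order male WT, male KO, female WT and female KO, the summed proximal tubule markers ranged over 85.3–90.2, 72.3–74.0, 99.7–116 and 67.4–69.2 CPM. Fibroblast markers summed to 3437–3674, 1793–1982, 3572–3846 and 2551–2781 CPM, with Dcn, Lum and Dpt under 1 CPM in each group. Smooth muscle and pericyte markers summed to 3417–3776, 2913–2984, 3776–3824 and 3727–4316 CPM. Of 9 leukocyte markers tested, 4 were higher in male KO and 5 in female KO, against 10.1% and 20.7% of all tested genes. Ptprc, Itgam and Adgre1 lay under 1 CPM in male WT, and Ptprc and Itgam were among the 4 higher in male KO. Cd3e and Cd79a, under 1 CPM in each group, were not tested. In bulk RNA, fewer cells of a type and less RNA per cell cannot be told apart.

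Per length of merged annotated exons, which allows levels to be compared roughly between genes, Igfbp7 was the most abundant member. Its mean was 978 CPM per kb in male WT, 790 in male KO, 914 in female WT and 779 in female KO. Igfbp2 (55.7, 51.9, 55.4 and 41.3 CPM per kb in the same order of groups) and Igf2r (47.2 to 51.5 over the group means) came next, with Igf1r below them (23.0, 22.9, 24.0 and 22.9). Igfbp5 ranked beside Igf1r in male WT, at 22.2 CPM per kb, and lay at 5.75 in female WT. That rank depends on the length used: per length of the longest transcript, male WT had 33.9 for Igf1r and 22.2 for Igfbp5. Igfbp2 had 78.8 in male WT by that length. Igfbp3 lay at 8.73 and 7.90 CPM per kb in male and female WT, and Igf1 at 1.90 and 5.51. Igfbp4 (0.853 to 1.17 CPM per kb over the group means), Igfbp6 (0.690 to 1.11) and Igf2 (0.0931 to 0.172) were the least abundant. Of the summed level of the 6 binding proteins per length, Igfbp7 made up 91.7%, 91.7%, 92.8% and 93.2%. The share of Igfbp5 was 2.09% ± 0.140 (SD, n = 4) in males with Diet1 and 1.5% ± 0.0895 (n = 3) without it, and 0.586% ± 0.0991 (n = 4) and 0.954% ± 0.138 (n = 4) in the females.

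**Figure D1:**
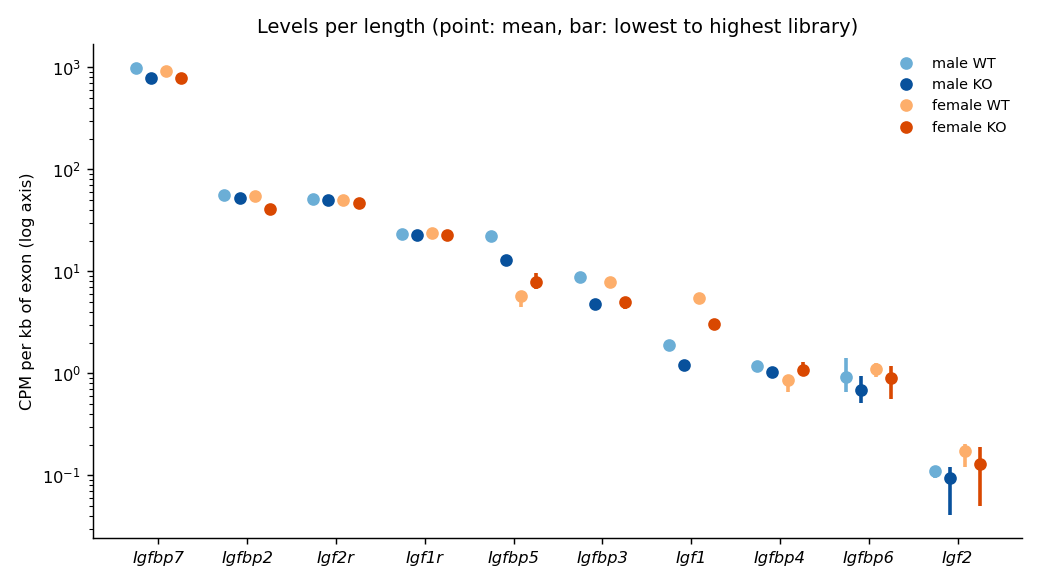
Level of the 10 IGF family genes per length of exon (CPM per kb, log axis) in the 4 groups, with a point for each group mean and a bar from the lowest to the highest library. Igfbp7 lies above the other 9 genes in all 4 groups, near 978 CPM per kb in male WT, and Igf2 lies lowest.

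In males, 4 of the 10 genes were lower in KO than in WT (Igf1, Igfbp3, Igfbp5 and Igfbp7) at an adjusted p below 0.05 in edgeR's quasi-likelihood test, against 10.1% of all tested genes called lower. None was called higher, against 10.1% of all tested genes. All 10 estimates were below 0, so 0 were higher at an unadjusted p below 0.05, and DESeq2 and limma-voom also called 0 higher. In females, 5 of 10 were lower (Igf1, Igf2r, Igfbp2, Igfbp3 and Igfbp7), against 18.6% of all tested genes, and 2 were higher (Igfbp4 and Igfbp5), against 20.7%. The median log2 fold change of the 10 was -0.29 in males and -0.25 in females, beside 0.00 for all tested genes in each sex. Igf1, Igfbp3 and Igfbp7 were lower in both sexes, whereas Igfbp5 was lower in male KO and higher in female KO. The KO effect differed between the sexes for 1 of the 10, Igfbp5, against 15.6% of all tested genes.

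Promoter sequences are shown for the binding protein genes that were called in both sexes, Igfbp3 and Igfbp7 in the same direction and Igfbp5 in opposite directions. The runs are from RefSeq (GRCm38.p6), read 5′ to 3′ on the gene's minus strand, with motif matches in capitals. Those of Igfbp3 and Igfbp7 end at the base before the RefSeq start, and that of Igfbp5 ends 19 bases earlier, since those bases lie in an annotated exon. The windows are chr11:7213924-7214173 for Igfbp3, chr1:72874885-72875115 for Igfbp5 and chr5:77408046-77408295 for Igfbp7.
Igfbp3: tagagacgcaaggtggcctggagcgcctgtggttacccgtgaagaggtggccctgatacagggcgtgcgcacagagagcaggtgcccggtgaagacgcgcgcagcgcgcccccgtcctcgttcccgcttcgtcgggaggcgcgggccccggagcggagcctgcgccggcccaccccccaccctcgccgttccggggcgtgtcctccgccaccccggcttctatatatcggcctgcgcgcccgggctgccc
Igfbp5: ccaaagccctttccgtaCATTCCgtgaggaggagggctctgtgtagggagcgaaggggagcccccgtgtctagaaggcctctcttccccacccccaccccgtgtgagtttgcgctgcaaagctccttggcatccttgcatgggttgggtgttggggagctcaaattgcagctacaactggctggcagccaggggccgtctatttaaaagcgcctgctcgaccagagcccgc
Igfbp7: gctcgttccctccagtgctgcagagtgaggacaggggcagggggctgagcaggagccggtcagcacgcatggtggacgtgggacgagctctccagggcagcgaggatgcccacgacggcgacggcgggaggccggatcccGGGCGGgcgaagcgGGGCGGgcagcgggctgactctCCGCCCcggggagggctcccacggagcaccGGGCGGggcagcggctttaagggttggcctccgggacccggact
Both strands were searched for 6 short motifs. Of 32851 RefSeq mouse promoter windows, 12.4% held the TATA box letters TATAAA and 32.7% the GC box letters GGGCGG. The CCAAT box by its name's own letters was found in 33.8%, and the AP-1 letters TGANTCA were found in 6.75%. The FOXO letters TGTTTAC were present in 3.17% and the TEAD letters GGAATG in 12.6%. The Igfbp7 window held 4 matches of GGGCGG and the Igfbp5 window 1 of GGAATG. No match of these letters lay in the Igfbp3 window, which is 73.2% G and C. Over the 14 windows listed for the 10 genes, 2, 6, 3, 2, 0 and 4 held each motif in that order. The matches in the windows shown do not overlap each other.

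Igf1 (chromosome 10, 87858265 to 87937042, plus strand, GRCm38), the main ligand of the type 1 receptor, was lower in KO in both sexes and higher in females in both genotypes. The 4 male WT libraries had 17.7, 18.8, 19.8 and 19 CPM. The 3 male KO libraries had 12.1, 13 and 11.1 CPM. Female WT libraries had 53.7, 51.2, 57.0 and 56.3 CPM and female KO libraries 30.9, 29.1, 29.2 and 31.6. The 4 groups did not overlap, in the order female WT, female KO, male WT and male KO. Igf1 was 1.56-fold lower in male KO (log2 fold change -0.64 ± 0.070 (SE), edgeR adjusted p = 1.37e-08) and 1.81-fold lower in female KO (-0.86 ± 0.050, adjusted p = 8.92e-16). The difference between these effects was -0.22 ± 0.087 with an edgeR adjusted p of 0.0873, and it passed the threshold without male KO library 3 (adjusted p = 0.0461) and with scaling by library size only (0.0377). The antisense gene Igf1os overlaps Igf1, and the strand setting of the counting is not given in the sources used here, so reads of the pair cannot be told apart.

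Igf2 (chromosome 7, 142650766 to 142666816, minus strand), the imprinted fetal ligand, was near the detection limit, with 5 to 28 counts per library. Its means were 0.631 ± 0.0665 CPM (SD, n = 4) in male WT, 0.533 ± 0.261 (n = 3) in male KO, 0.984 ± 0.214 (n = 4) in female WT and 0.738 ± 0.334 (n = 4) in female KO. The KO effect was -0.28 in males, with a 95% interval from -1.05 to 0.49 on the log2 scale, and -0.39 in females, from -1.0 to 0.22. Neither effect was called, and at this depth the wide intervals leave the size of any change uncertain. Its antisense partner Igf2os had 0 to 4 counts per library.

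**Figure D2:**
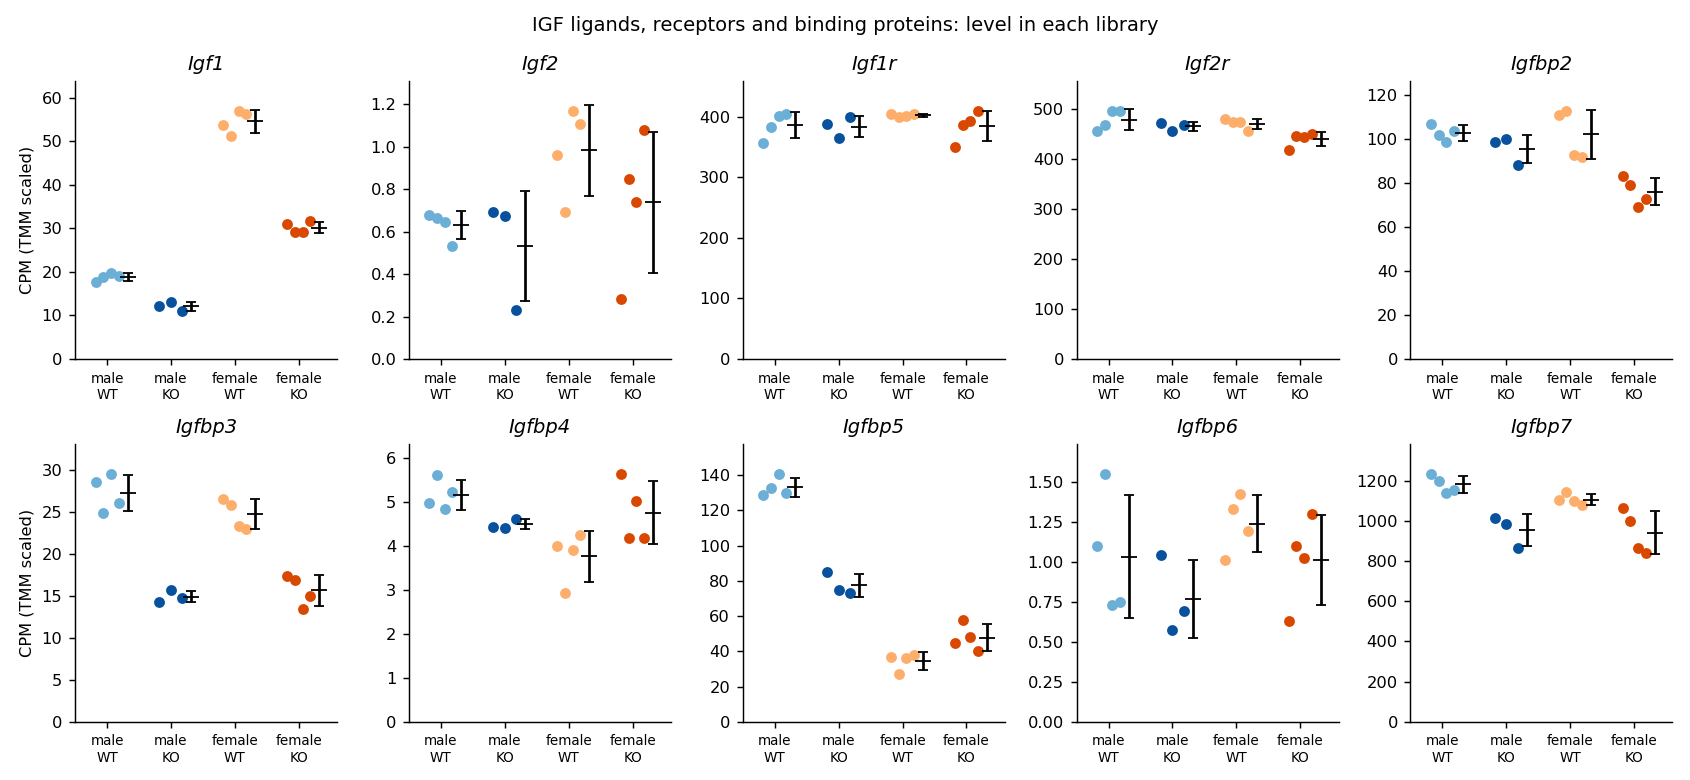
Level of each IGF family gene in CPM, with a point per library and the mean ± SD of each group. The 4 groups of Igf1 are apart, and those of Igfbp5 run from 27.0 to 38.1 CPM in female WT up to 129 to 141 CPM in male WT.

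The signalling receptor Igf1r (chromosome 7, 67952827 to 68233668, plus strand) was not called in any of the 5 comparisons. Its means were 387 ± 21.9 CPM (SD, n = 4) in male WT, 384 ± 17 (n = 3) in male KO, 402 ± 2.77 (n = 4) in female WT and 385 ± 24.7 (n = 4) in female KO, and WT and KO ranges overlapped in each sex. The KO effect had a 95% interval from -0.11 to 0.09 on the log2 scale in males and from -0.15 to 0.03 in females.

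Igf2r (chromosome 17, 12682406 to 12769664, minus strand) was 1.07-fold lower in female KO. In female WT the libraries had 480, 474, 474 and 456 CPM and female KO libraries 419, 446, 444 and 450, so the ranges did not overlap, although the gap was 456 against 450. The log2 fold change was -0.10 ± 0.029 (SE, edgeR adjusted p = 0.00660). In males the KO effect was -0.04, with a 95% interval from -0.11 to 0.02, and the difference between the sexes had an edgeR adjusted p of 0.427. The antisense gene Airn, which overlaps Igf2r, had 39 to 84 counts per library.

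Igfbp3 (chromosome 11, 7206086 to 7213923, minus strand), whose product is the main carrier of IGFs in serum, was lower in KO in both sexes. In males the WT libraries had 28.6, 24.9, 29.6 and 26.1 CPM, and the KO libraries 14.3, 15.7 and 14.8. In females the WT libraries had 26.6, 25.9, 23.4 and 23.0 CPM, and female KO libraries 17.4, 16.9, 13.4 and 15. Each KO library lay below each WT library of its sex, whereas the groups of 1 genotype overlapped between the sexes. Igfbp3 was 1.84-fold lower in male KO (log2 fold change -0.88 ± 0.079 (SE), edgeR adjusted p = 2.58e-10) and 1.58-fold lower in female KO (-0.66 ± 0.073, adjusted p = 7.53e-09). The effects differed by 0.22 ± 0.11, which did not pass the test (edgeR adjusted p = 0.184). Fibroblast markers also changed: 7 of 10 tested were lower in male KO, and in female KO 6 were lower and 2 higher. Unlike Igfbp3, 5 of these 10 had a KO effect called different between the sexes, each higher in females. That share was 15.6% among all tested genes. Among all tested genes, 10.1% were called lower in males, and 18.6% lower and 20.7% higher in females. The part of these markers in the result was not tested.

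Igfbp5 (chromosome 1, 72857932 to 72874884, minus strand), a binding protein that attaches to extracellular matrix, had opposite KO effects in the sexes. Male WT libraries had 129, 133, 141 and 130 CPM, and male KO libraries 85.1, 74.6 and 73.1. Female WT libraries had 37.0, 27.0, 36.1 and 38.1 CPM, and female KO libraries 44.6, 57.9, 48.4 and 40.0. The 4 groups did not overlap, and the sexes lay closer together in KO than in WT. Igfbp5 was 1.72-fold lower in male KO (log2 fold change -0.78 ± 0.11 (SE), edgeR adjusted p = 3.58e-04) and 1.37-fold higher in female KO (0.46 ± 0.12, adjusted p = 0.0118). Fitted on female libraries alone, the female estimate was 0.45 with an edgeR adjusted p of 0.0549. Without female WT library 2, the lowest of its group, it was 0.36 (adjusted p = 0.0200). The difference between the effects was 1.24 ± 0.17 (edgeR adjusted p = 2.69e-04).

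Endothelial markers also had KO effects that differed between the sexes, in 9 of 10 genes by the same edgeR test. Their sums ranged over 84.9–91.5, 40.1–45.0, 34.9–41.8 and 39.0–50.6 CPM in the order male WT, male KO, female WT and female KO. Of the 10 genes, 9 were lower in male KO and 2 were higher in female KO, while Tek lay under 1 CPM in each group but male WT. Podocyte and parietal cell markers summed to 673–717, 673–704, 512–534 and 570–610 CPM, with 1 of 8 higher and 2 lower in male KO and 4 higher and 1 lower in female KO. The KO effect differed between the sexes for 6 of these 8, each higher in females than in males. Of 9 smooth muscle and pericyte markers, 8 were lower in male KO, and in female KO 2 were higher and 3 lower. Their KO effect differed for 8 of 9, higher in females for 7. The KO effect also differed for 5 of 10 fibroblast markers tested, each higher in females. Among all tested genes, 15.6% had a KO effect that differed between the sexes. Called higher and lower were 10.1% and 10.1% in males, and 20.7% and 18.6% in females. The part of any of these marker lists in the Igfbp5 result was not tested.

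Igfbp2 (chromosome 1, 72824503 to 72852474, plus strand) lies 5457 bases from Igfbp5, in convergent orientation. Male WT libraries had 107, 102, 98.7 and 104 CPM, and male KO libraries 98.8, 100.5 and 88.3. The female WT libraries measured 111, 113, 93.1 and 92.1 CPM, and female KO libraries 83.2, 79.4, 69.4 and 73.0. Male ranges overlapped and female ranges did not. Igfbp2 was 1.34-fold lower in female KO (log2 fold change -0.42 ± 0.078 (SE), edgeR adjusted p = 7.15e-04), while the male effect of -0.11 had a 95% interval from -0.28 to 0.07. The difference between the sexes was -0.32 ± 0.11 with an edgeR adjusted p of 0.0817. It passed the threshold without female WT library 3 (adjusted p = 0.0428), female WT library 4 (0.0297) or female KO library 1 (0.0494), in DESeq2 (0.0389), and with the replicate number as a block (-0.29, edgeR adjusted p = 5.75e-05). Calls lower in KO made up 10.1% of all tested genes in males and 18.6% in females. Of 7 loop, distal tubule and collecting duct markers tested, 1 was lower in male KO and 5 were lower in female KO. They summed to 10.9–13.5, 7.12–9.06, 19–21.4 and 4.24–8.13 CPM, with Umod, Slc12a1, Slc12a3, Calb1, Aqp2, Avpr2 and Kcnj1 under 1 CPM in each group, and their part in the result was not tested.

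Igfbp7 (chromosome 5, 77349240 to 77408041, minus strand), a low-affinity IGF binder of vessel walls and matrix, was lower in KO in both sexes. Male WT libraries had 1236, 1197, 1141 and 1154 CPM, and male KO libraries 1016, 985 and 865. Female WT libraries had 1102, 1142, 1099.6 and 1078 CPM, and female KO libraries 1063, 999, 866 and 840.1. The ranges did not overlap in either sex, with 1063 against 1078 in females. Igfbp7 was 1.24-fold lower in male KO (log2 fold change -0.31 ± 0.079 (SE), edgeR adjusted p = 0.0165) and 1.17-fold lower in female KO (-0.23 ± 0.073, adjusted p = 0.0256). The male call was lost without male KO library 3 (-0.24, edgeR adjusted p = 0.0789). The female call was lost without female WT library 2 (adjusted p = 0.0626), female KO library 3 (0.0664) or female KO library 4 (0.0598), and on female libraries alone (0.0532). Polr2b, which overlaps Igfbp7, had 1899 to 3279 counts per library.

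Igfbp4 (chromosome 11, 99041244 to 99054392, plus strand), the substrate of pappalysin, was called higher in female KO, but the ranges overlapped. Female WT libraries had 4.00, 2.93, 3.90 and 4.24 CPM, and female KO libraries 5.65, 4.19, 5.03 and 4.18. The log2 fold change was 0.32 ± 0.13 (SE, edgeR adjusted p = 0.0426). The call was lost in 8 of the fits that left out 1 library. The clearest losses were without female WT library 2 (0.22, edgeR adjusted p = 0.175) or female KO library 1 (0.23, 0.174). It was also lost with DESeq2 (adjusted p = 0.0694) and limma-voom (0.0583). In edgeR it was lost with upper-quartile factors (adjusted p = 0.0515), library size only (0.0746), no filter (0.0607) and on female libraries alone (0.0646). In males the libraries had 4.98, 5.61, 4.84 and 5.23 CPM in WT and 4.44, 4.42 and 4.62 in KO. These ranges did not overlap, and the effect of -0.19 ± 0.13 did not pass the test (edgeR adjusted p = 0.335). The difference between the sexes was 0.51 ± 0.18, with an edgeR adjusted p of 0.0501. It passed the threshold without male WT library 3 (adjusted p = 0.0476), female WT library 4 (0.0326), female KO library 2 (0.0408) or female KO library 4 (0.0345), and with a filter of at least 5 CPM in 3 libraries (0.0485).

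Igfbp6 (chromosome 15, 102144362 to 102149511, plus strand), which prefers IGF2, had 11 to 34 counts per library. Its means were 1.03 ± 0.388 CPM (SD, n = 4) in male WT, 0.767 ± 0.241 (n = 3) in male KO, 1.24 ± 0.176 (n = 4) in female WT and 1.01 ± 0.283 (n = 4) in female KO. The 95% intervals of the KO effect ran from -1.02 to 0.22 on the log2 scale in males and from -0.79 to 0.26 in females.

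**Figure D3:**
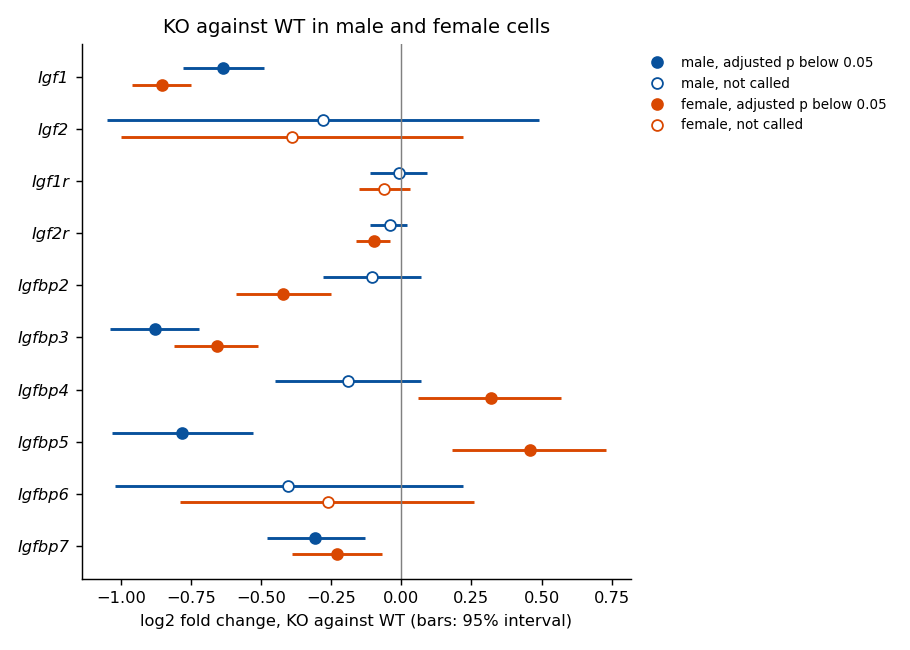
KO against WT log2 fold change of each IGF family gene in males and in females, with bars for the 95% interval and filled points where the edgeR adjusted p is below 0.05. Igf1, Igfbp3 and Igfbp7 lie below 0 in both sexes, and Igfbp5 lies at -0.78 in males and 0.46 in females.

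Between the sexes in WT, 3 of the 10 genes differed, against 28.6% of all tested genes. Igf1 was 2.90-fold higher in female WT (log2 fold change 1.54 ± 0.052 (SE), edgeR adjusted p = 5.88e-22), Igfbp5 was 3.84-fold lower (-1.94 ± 0.11, adjusted p = 6.06e-08) and Igfbp4 was 1.35-fold lower (-0.43 ± 0.12, adjusted p = 0.00637). In KO, 3 of 10 differed, against 9.20% of all tested genes. Igf1 was 2.50-fold higher in female KO (1.32 ± 0.067, edgeR adjusted p = 1.36e-16) and Igfbp5 was 1.63-fold lower (-0.70 ± 0.12, adjusted p = 0.00297). Igfbp2 was 1.26-fold lower in female KO than in male KO (-0.33 ± 0.084, edgeR adjusted p = 0.0247). That call was lost without male KO library 1 (adjusted p = 0.0963), male KO library 2 (0.100), female KO library 3 (0.0562) or female KO library 4 (0.0664). Endothelial markers also separated the sexes in WT, with 9 of 10 lower in females, but in KO 1 of 10 was lower and 0 higher. Of 8 podocyte and parietal cell markers, 7 were lower in female WT and 5 in female KO. Of 9 leukocyte markers 7 were higher in female WT, and in female KO 6 were higher and 1 lower. The leukocyte markers summed to 22.9 to 28.1 CPM in male WT and 37.4 to 45.7 in female WT. The part of these marker lists in the results was not tested.

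The remaining binding proteins were scarce. Igfbp1, which lies 3539 bases from Igfbp3, had means of 0.506 to 0.765 CPM and was not called in either sex (male log2 fold change -0.41 ± 0.33, edgeR adjusted p = 0.432, and female 0.60 ± 0.31, 0.124). Igfbpl1 was lower in female KO, at 1.6 against 2.67 CPM (-0.74 ± 0.17, edgeR adjusted p = 7.91e-04). The list of genes that free IGFs from binding proteins, or inhibit those proteases, held 7 tested genes. Of these, 5 were lower in male KO and 3 in female KO, against 10.1% and 18.6% of all tested genes. The median log2 fold change of that list was -0.47 in males and 0.05 in females. Pappa, the protease that cleaves Igfbp4, fell from 72.8 ± 5.53 (SD, n = 4) to 50.2 ± 2.16 (n = 3) CPM in males (-0.53 ± 0.056, edgeR adjusted p = 5.22e-08). In females Pappa went from 79.6 ± 4.81 (n = 4) to 72.4 ± 3.27 (n = 4) CPM (-0.14 ± 0.049, edgeR adjusted p = 0.0261). Stc2, a stanniocalcin that inhibits pappalysin, fell in both sexes, from 7.65 to 5.0 CPM in males (-0.62 ± 0.12, edgeR adjusted p = 1.69e-04) and from 8.56 to 5.34 in females (-0.68 ± 0.11, adjusted p = 3.50e-06). Adam12, another binding protein protease, fell in both sexes, with log2 fold changes of -0.10 ± 0.031 in males (edgeR adjusted p = 0.0160) and of -0.28 ± 0.028 in females (6.78e-10).

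Over all tested genes, 20.2% were called in either direction in males and 39.3% in females. Of 7 receptor family and adaptor genes tested, 1 was lower in males, and 1 was lower and 1 higher in females. The adaptor Irs2 fell in both sexes, from 28.8 to 24.7 CPM in males (-0.22 ± 0.053, edgeR adjusted p = 0.00230) and from 30.1 to 20.8 in females (-0.53 ± 0.050, adjusted p = 1.16e-10). Irs1 rose in female KO (0.13 ± 0.040, edgeR adjusted p = 0.00729). In the PI3K, AKT and mTOR arm, 5 of 20 were called in males and 5 of 20 in females. Akt1 rose from 359 to 394 CPM in males (0.14 ± 0.028, edgeR adjusted p = 3.53e-04) and from 339 to 399 in females (0.24 ± 0.026, adjusted p = 3.00e-09), and the PI3K regulatory subunit gene Pik3r2 fell in both (-0.14 ± 0.036 and -0.22 ± 0.033). The catalytic subunit gene Pik3cb rose in both (0.11 ± 0.036 and 0.21 ± 0.034). Pik3r1, another regulatory subunit gene, fell in male KO (-0.15 ± 0.048), and Rheb, the GTPase that activates mTOR, fell in female KO (-0.12 ± 0.035).

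Among 12 inhibitors of the receptor arm, 3 were higher and 2 lower in male KO, and 5 higher and 1 lower in female KO. Of all tested genes, 10.1% were called higher and 10.1% lower in males, and 20.7% and 18.6% in females. Socs2, a suppressor of growth hormone signalling, rose from 23.4 to 28.6 CPM in males (0.29 ± 0.056, edgeR adjusted p = 1.65e-04) and from 22.7 to 30.7 in females (0.44 ± 0.052, adjusted p = 1.60e-08). The receptor-binding adaptor Grb14 rose from 14.6 to 17.1 and from 9.56 to 14.9 CPM (0.22 ± 0.080 and 0.64 ± 0.081), and Socs3 fell in both sexes (-0.27 ± 0.071 and -0.44 ± 0.066). Inpp5d, a lipid phosphatase gene of blood cells with 16 to 72 counts per male library, fell in male KO (-1.0 ± 0.27, edgeR adjusted p = 0.00723). Its ranges overlapped, at 1.11 to 2.91 CPM in male WT and 0.790 to 1.57 in male KO. In the growth hormone axis, 1 of 6 was higher in males, and in females 2 were higher and 1 lower, with Cish at -0.35 ± 0.068 (edgeR adjusted p = 9.52e-05) and Stat5b at 0.13 ± 0.050 (0.0445). Socs2 stands in both lists.

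In a list of genes for proteins that bind the Igf2 transcript, with H19 added, 2 of 4 were higher in male KO and 3 of 4 in female KO. H19 was not called in either sex. Calls higher made up 10.1% of all tested genes in males and 20.7% in females. Igf2bp1 rose from 11.3 to 15.3 CPM in males (0.46 ± 0.096, edgeR adjusted p = 5.24e-04) and from 8.54 to 12.4 in females (0.54 ± 0.096, adjusted p = 3.10e-05). Igf2bp2 rose in both sexes (0.21 ± 0.040 and 0.17 ± 0.037). Igf2bp3 rose in female KO from a low level, 0.308 to 0.648 CPM (1.11 ± 0.37, edgeR adjusted p = 0.0152). Among 14 FOXO target genes, 2 were higher and 1 lower in males and 4 higher and 3 lower in females. For all tested genes the shares were 10.1% higher and 10.1% lower in males, and 20.7% and 18.6% in females. Irs2, lower in both sexes, stands in this list and in the adaptor list. Sesn3 (0.12 ± 0.043 and 0.34 ± 0.040) and Txnip (0.09 ± 0.029 in males, adjusted p = 0.0188) were among the higher. Pck1, a gluconeogenic enzyme gene, was higher in female KO (0.36 ± 0.15, edgeR adjusted p = 0.0480), and Klf15, at 0.720 and 0.408 CPM, among the lower in females (-0.83 ± 0.33, edgeR adjusted p = 0.0440).

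Cell surface partners of IGFs and their binding proteins had KO effects that differed between the sexes in 7 of 12 genes by edgeR's test. For all tested genes that share was 15.6%. Of the 12, 7 were lower in male KO, against 10.1% of all tested genes. In female KO 4 were lower and 4 higher, against 18.6% and 20.7%. The median log2 fold changes were -0.27 in males and 0.04 in females. Lrp1, a receptor of Igfbp3, fell from 650 to 495 CPM in males (-0.39 ± 0.059, edgeR adjusted p = 2.86e-04) and was 601 and 651 CPM in female WT and KO. The integrin subunit gene Itgav rose in female KO from 594 to 798 CPM (0.43 ± 0.060, edgeR adjusted p = 8.94e-05), and Itga5 rose from 516 to 639 (0.31 ± 0.035, adjusted p = 8.78e-08). Lrp2, which encodes megalin, the endocytic receptor of the proximal tubule, fell from 20.9 to 15.4 CPM in males and from 19.5 to 12.1 in females (-0.44 ± 0.076 and -0.68 ± 0.074). Gpc3 fell in female KO (-0.92 ± 0.22, edgeR adjusted p = 0.00139).

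**Figure D4:**
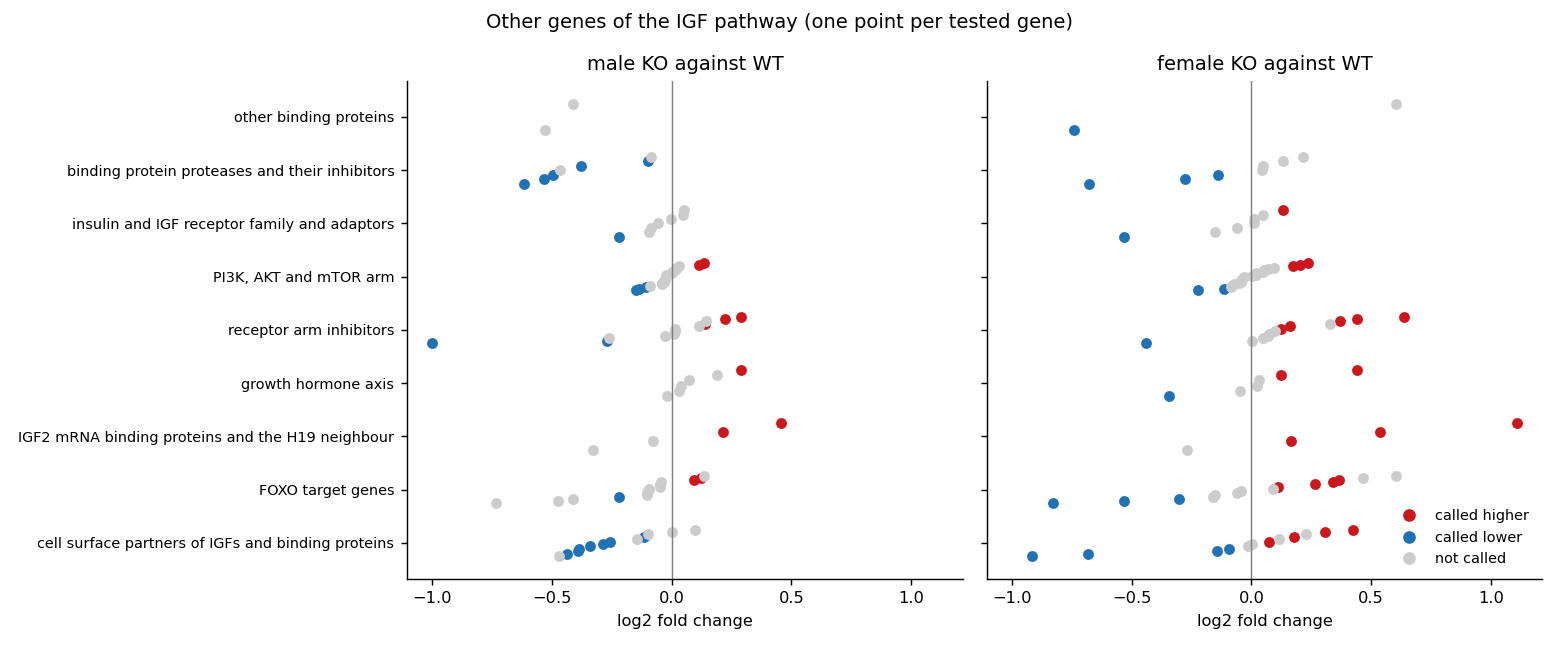
KO against WT log2 fold change (x axis) of the tested genes of 9 IGF pathway lists, 1 point per gene, in males (left) and females (right), coloured by call. The protease and surface partner lists hold 5 and 7 genes called lower in males, and the point farthest to the right in females is Igf2bp3 at 1.11.

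For each family gene called in either sex, the 2 other genes with the most similar profile over the 15 libraries were found among 10319 genes, by the root mean square difference of mean-centred log2 CPM. The smaller that difference beside the gene's own SD over libraries, the closer the match. Igf1 (SD 0.814) was nearest to Actg2, an actin gene of smooth muscle, at 0.193, and to Fbn2, at 0.207. Actg2 lay at 18.3, 12, 66.9 and 35.3 CPM in male WT, male KO, female WT and female KO. Igfbp5 (SD 0.804) was nearest to Epas1, a hypoxia-inducible transcription factor gene high in endothelium, at 0.215, and to Clic5 at 0.223. Epas1 had a KO effect of -0.68 ± 0.084 in males and 0.58 ± 0.096 in females, from 21.2 CPM in male WT and 6.61 in female WT. Igfbp3 (SD 0.410) was nearest to Gpr153 (0.134) and Aebp1 (0.138), an extracellular matrix gene that lay at 199, 116, 183 and 135 CPM. Igfbp7 (SD 0.174) was nearest to Aldh2 (0.0735) and Saraf (0.0784), Igfbp2 (SD 0.213) to Ly6a (0.0927) and Ly6e (0.0948), Igf2r (SD 0.0641) to Sel1l (0.0271) and Sec63 (0.0335), and Igfbp4 (SD 0.234) to Cdr2l (0.136) and Plat (0.136).

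**Figure D5:**
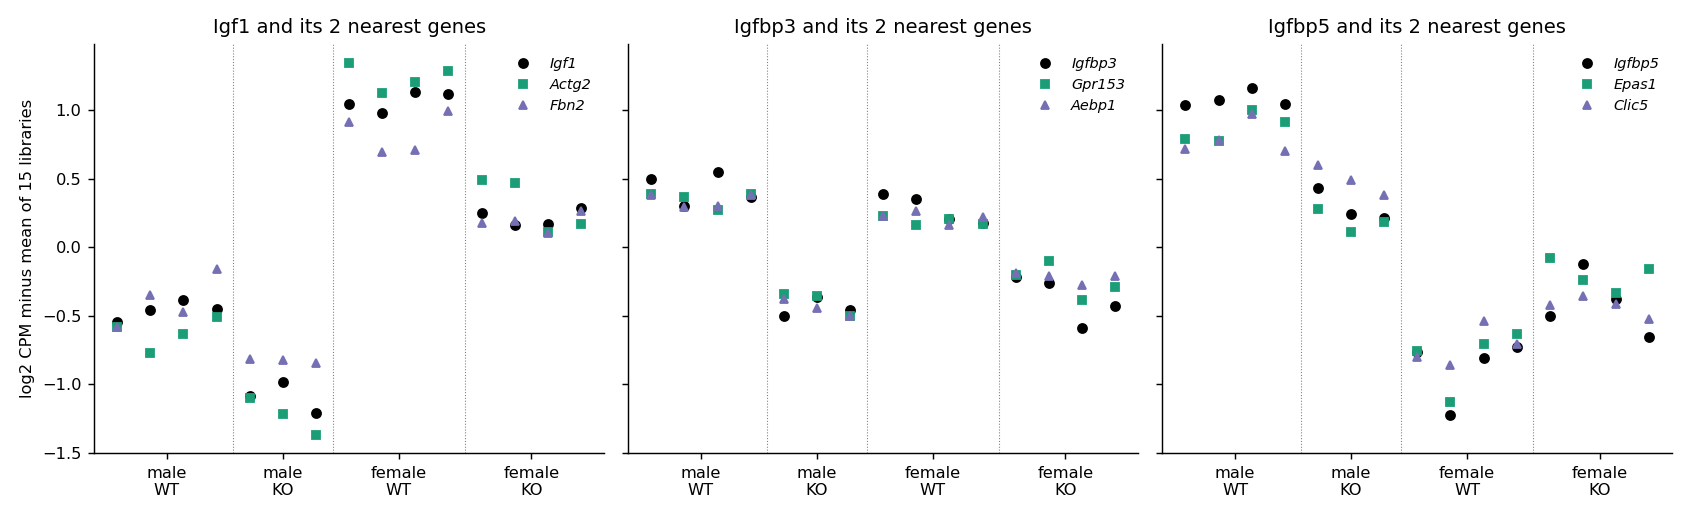
Mean-centred log2 CPM (y axis) of Igf1, Igfbp3 and Igfbp5, each with its 2 nearest genes, with a point for each of the 15 libraries, grouped by sex and genotype. Igf1 and Actg2 are highest in female WT, and Igfbp5 and Epas1 are highest in male WT.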

How the data were processed

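RNA of 15 libraries from 4 groups was counted per gene. The authors deposited raw read counts under gene symbols. The submitters' processing notes name STAR 2.6.1, featureCounts, edgeR 3.26.8, limma 3.40.6 and the build mm10. Libraries were strand-specific, per the labels' protocols. Annotation and strand setting are not given in the sources used here. A deposited table of CPM values was not used in the tests.

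Tests were run with edgeR 4.0.16 in R 4.3.3. Genes were kept by filterByExpr (minimum count 10, total 15), and 1 robust quasi-likelihood model with TMM scaling and a mean per group was fitted over all 4 groups. P-values were adjusted by Benjamini-Hochberg over 13912 genes, with a threshold of 0.05, and intervals cover 95%. The SE is the estimate over the square root of F. The square root of the common dispersion, here the spread between technical libraries, was 3.59%. The floor of 3 counts equals 0.0971 to 0.170 CPM. Libraries of a group differed by more than sampling noise (chi-square per degree of freedom from 1.52 to 7.84). In simulated data on 13912 genes with 200 changed, 80.0% of 1.5-fold and 92.0% of 2-fold changes were recovered in males, and 83.0% and 88.0% in females. False calls made up 7.03% of calls in males and 3.93% in females. The simulated noise was the spread between technical libraries, and fewer genes were changed than were called in the data. These rates therefore do not cover differences between pools.

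The 10 genes and the other lists were chosen with earlier results of these data known. From each pathway list up to 2 called genes per direction and sex, those with the largest fold, are named, and 2 nearest genes for each called family gene. Igfbp1 and the genes that overlap family genes fall outside this rule. Positions are from GENCODE M21 on GRCm38 and promoters from RefSeq on GRCm38.p6, which listed 14 windows for the 10 genes. Alternatives were other scalings, filters, DESeq2 1.42.0, limma-voom (limma 3.58.1), a replicate block, fits on the compared groups alone, and fits without 1 library at a time.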

Additional observations from a re-analysis of the deposited data

Results flagged for a closer look

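Igfbp5 had a KO effect that differed between the sexes, by 1.24 on the log2 scale (female minus male, edgeR interaction test, adjusted p = 2.69e-04). In the 30 groups of 4 libraries checked for the family genes, no library stood apart from the other 3 by Dixon's criterion on CPM values. On log2 CPM, a check added after the values were seen, 1 of 30 did: female WT library 2 for Igfbp5, at a ratio of gap to range of 0.844 (0.821 on CPM). Chance flags about 1 in 20 groups. Without that library the Igfbp5 difference was 1.14 (edgeR adjusted p = 1.46e-04).

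Among the pathway and nearest genes named by rule, the same interaction test called 18. In the pathway lists the female minus male difference was 0.39 for Pappa, -0.18 for Adam12, -0.31 for Irs2, 0.42 for Grb14, 1.33 for Inpp5d, -0.38 for Cish, 0.22 for Sesn3, 0.51 for Lrp1, 0.33 for Itgav and 0.70 for Itga5. Among the genes nearest in profile it was 1.27 for Epas1 and 0.60 for Clic5 (near Igfbp5), 0.31 for Gpr153 and 0.34 for Aebp1 (near Igfbp3), -0.46 for Ly6a and -0.30 for Ly6e (near Igfbp2), and 0.48 for Cdr2l and 0.52 for Plat (near Igfbp4). Those 8 were chosen for their likeness to family genes, so their differences are not separate evidence. Inpp5d had 16 to 72 counts per library, and its WT and KO ranges overlapped in each sex.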

How the results depend on the processing

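The KO calls of Igf1 and Igfbp3 in both sexes, of Igfbp5 in males and of Igf2r and Igfbp2 in females held under each alternative run. The number of family genes called higher in female KO, 2 in the report, was 1 with upper-quartile factors, library size only, no filter, DESeq2 and limma-voom, 0 when only the groups compared were fitted, and 1 to 2 when 1 library was left out. The number whose KO effect differed between the sexes, 1 in the report, was 2 with library size only, with at least 5 CPM in 3 libraries, with DESeq2 and with the replicate block, and 1 to 3 when 1 library was left out. Scaling by library size only put 39.9% of all calls in female KO higher, beside 52.7% with TMM. No estimate of a called gene changed sign. Replicate numbers are shared between groups, and the labels do not say that a number marks anything shared. Same-numbered libraries had correlations of their deviations from -0.0285 to 0.0784, above 0 in 12 of 14 pairs, and 10 of 15 libraries were closest to their own number. The correlations are weak, but the count of 10 was not set against a chance level. Whether the numbers mark something shared was not tested, and the main model did not pair the samples by them. With the replicate block, Igfbp2 passed the test in males (-0.13, edgeR adjusted p = 0.0159) and in the difference between the sexes (-0.29, 5.75e-05). For Igf2 and Igfbp6, with 5 to 34 counts per library, depth limits what could be seen. The cause of these changes was not tested.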

Other observations

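Within female KO, libraries 1 and 2 lay above libraries 3 and 4 for 3 binding proteins. Igfbp7 had 1063 and 999 CPM against 866 and 840.1, Igfbp2 had 83.2 and 79.4 against 69.4 and 73.0, and Igfbp3 had 17.4 and 16.9 against 13.4 and 15. In female WT the same split was seen for Igfbp2, at 111 and 113 CPM against 93.1 and 92.1, and for Igfbp3, at 26.6 and 25.9 against 23.4 and 23.0. Igfbp7 showed it in female WT, at 1102 and 1142 CPM against 1099.6 and 1078. Male WT showed it for Igfbp7, at 1236 and 1197 against 1141 and 1154, but not for Igfbp2 or Igfbp3. In male KO, libraries 1 and 2 lay above library 3 for Igfbp7 (1016 and 985 against 865). The same held there for Igfbp2 (98.8 and 100.5 against 88.3), but not for Igfbp3. Igf1r went the other way in female KO, where libraries 1 and 2 had 351 and 387 CPM against 393 and 410. Male WT also showed this reverse split, for Igf1r (357 and 383 against 402 and 404) and Igf2r (456 and 468 against 496 and 497). It was not seen for Igf1r in female WT or for Igf2r in female KO. The pattern was noticed after the values were seen and was not tested.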
